A study of Mus musculus with 6 samples.

Results

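The genes described here encode the proteins of the cytosolic ribosome, measured in retinae of newborn Meg2 knockout and wild-type mice. A gene was a member when its symbol was that of a large subunit protein (Rpl or Rplp) or of a small subunit protein (Rps or Rpsa), when the array held at least 1 transcript cluster annotated to that symbol alone, and when it was not a pseudogene, an Rps6k kinase gene or a mitochondrial (Mrp) gene. A transcript cluster is a group of probes that together read 1 transcript. Where a gene had several such clusters, the one with the highest mean over the 6 arrays stood for it. This gave 53 genes, 33 of the large and 20 of the small subunit, out of 19938 genes that had a cluster of their own. The gene table holds 76 protein-coding symbols of this pattern. Of the others, 16 were read only by clusters that carry several symbols and 7 had no annotated cluster and were not analysed here.

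The ribosome translates messenger RNA into protein. Its small subunit reads the codons, and its large subunit joins the amino acids and holds the tunnel through which the new chain leaves. Growing and dividing cells, such as the progenitors of a newborn retina, make ribosomal proteins in large amounts and in matched proportions. Their mRNAs begin with a run of pyrimidines, the 5′ terminal oligopyrimidine (TOP) tract, through which mTORC1 and the RNA-binding protein LARP1 control their translation and stability.

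The study held 3 Meg2 knockout and 3 wild-type samples, all at postnatal day 0 on the C57BL/6NTac background, on Affymetrix Mouse Gene 1.0 ST arrays. Each array carried RNA from both retinae of 1 animal, per the labels. The Ptpn9 gene encodes Meg2, a cytosolic protein tyrosine phosphatase. Neither the deleted part of the gene nor the way the allele was made is stated by the labels. The values are RMA log2 signals, and a difference is always knockout minus wild type.

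The Ptpn9 cluster read 9.31, 9.58 and 9.28 on the knockout arrays and 10.05, 9.93 and 9.94 on the wild-type arrays, a difference of -0.58 (SE 0.087; limma, adjusted p = 0.437), and the groups followed their labels. Array medians over the whole table lay between 7.84 and 7.91. Retinal marker genes such as Pax6 and Crx were measured by 10 of 12 listed clusters, with mean signals from 9.21 to 13.1. Both replicate 2 arrays carried high Xist signal (12.54 on the knockout array and 12.55 on the wild-type array) together with Y-linked signal (Eif2s3y 7.66 on the knockout array and 7.76 on the wild-type array), although the labels give 1 animal per array. The replicate 1 arrays had high Xist (12.58 on the knockout array and 12.73 on the wild-type array) with low Eif2s3y (5.08 on the knockout array and 5.49 on the wild-type array). The replicate 3 arrays had low Xist (6.26 on the knockout array and 6.52 on the wild-type array) with high Eif2s3y (10.03 on the knockout array and 9.39 on the wild-type array). Sex-linked signal thus ran with the replicate number in both genotypes, so comparisons within a number, or with the number as a block, hold most of it level. Some remained: within numbers 1, 2 and 3 the knockout minus wild-type difference was -0.41, -0.10 and 0.64 for Eif2s3y. For the Y-linked Uty it was 0.52, -0.49 and 0.19. Results are also given without the replicate 2 arrays. With 3 arrays per genotype, array number limits how precise each difference can be. Without a block, p-values measure the spread between arrays of 1 group, which the labels name as separate animals. That spread also holds what ran with the replicate number, sex-linked signal among it. Whether each replicate 2 array carried 1 animal could not be settled. In bulk samples like these, a change in the share of cells and a change in RNA per cell cannot be told apart.

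The TOP tract lies at the first bases of the transcript, so the sequence around the annotated start is shown for 8 members: the 4 of the 5 with the largest differences that have a promoter entry, 3 of the 4 with a difference below 0, and Rps6, whose protein is the classical substrate of the S6 kinases. Each window runs from 25 bases before to 25 bases after an annotated start of the transcript, 5′ to 3′ on the gene's own strand, from RefSeq on build GRCm38.p6. Where several starts are annotated, the one with the longest run was taken. Capitals mark the longest unbroken run of C and T in the window, wherever it lies, so a marked run need not be the TOP tract. The run began at position -15 from the start in Rps15a and at position 19 in Rpl23.
Rpl22: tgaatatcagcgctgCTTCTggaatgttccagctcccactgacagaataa
Rps15a: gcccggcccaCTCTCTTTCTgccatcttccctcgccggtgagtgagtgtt
Rpl23: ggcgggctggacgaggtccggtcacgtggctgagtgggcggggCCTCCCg
Rpl27a: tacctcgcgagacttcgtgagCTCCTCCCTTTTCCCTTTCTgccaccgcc
Rps6: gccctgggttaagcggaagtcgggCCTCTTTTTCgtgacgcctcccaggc
Rpl34: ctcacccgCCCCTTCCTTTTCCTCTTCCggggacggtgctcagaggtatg
Rps19: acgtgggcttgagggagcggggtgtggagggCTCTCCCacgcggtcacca
Rpl12: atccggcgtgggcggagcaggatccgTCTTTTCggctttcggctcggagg

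These windows lie at chr4:152324411-152324460 on the plus strand for Rpl22, chr7:118116123-118116172 on the minus strand for Rps15a, chr11:97782415-97782464 on the minus strand for Rpl23 and chr7:109519170-109519219 on the plus strand for Rpl27a. Those of Rps6 and Rpl34 lie on the minus strand at chr4:86857343-86857392 and chr3:130730313-130730362. Those of Rps19 and Rpl12 lie on the plus strand at chr7:24884888-24884937 and chr2:32961687-32961736. Promoter entries existed for 42 of the 53 members. The run was 20 bases long in both Rpl27a, among the largest differences, and Rpl34, among those below 0, and 5 bases long in Rpl22.

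A pyrimidine run of at least 8 bases stood anywhere in this window in 19 of 42 members (45.2%), where the share was 22.04% among 17491 protein-coding genes. The run began at position -22 from the start in Rps25 and at position 18 in Rpl10a, so the count is not of TOP tracts. The 19 members with such a run had a median difference of 0.064 and the 23 without it one of 0.053. The letters CTTTCC on the gene's strand stood in the same window in 4 members (9.52%) and in 2.78% of protein-coding genes. CGGAAG, the core bound by ETS factors such as GABP, stood on either strand of the 300 bases around the start in 30 members (71.4%), against 23.5% of protein-coding genes. Members with and without CGGAAG had median differences of 0.065 and 0.055. AAGATGGC, a core of YY1 motifs, stood on either strand in 2 members (4.76%), against 3.57% of protein-coding genes, and the 2 were Rpl22 and Rps15a. None of these motifs contains another, but CGGAAG and AAGATGGC can overlap by AAG, and CTTTCC can be part of a pyrimidine run. A match is a description of the letters and does not show that a factor binds.

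Knockout signal was slightly higher than wild type in most ribosomal protein genes. The difference was above 0 in 49 of 53 members (92.5%), against 50.7% of the 23410 clusters tested. Its median over members was 0.059 on the log2 scale, against 0.0012 over all tested clusters, and single members lay between -0.066 (Rpl12) and 0.20 (Rpl22). No member passed an adjusted p of 0.05 in limma (lowest adjusted p of a member = 0.9995, adjusted over all tested clusters, of which 0.0% passed). At an unadjusted p under 0.05, 3 members were higher (5.66%) and 0 were lower, where 1.69% of tested clusters were higher and 1.74% were lower. The median SE of a single member was 0.065, so a typical single difference was about the size of its own SE.

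**Figure D1:**
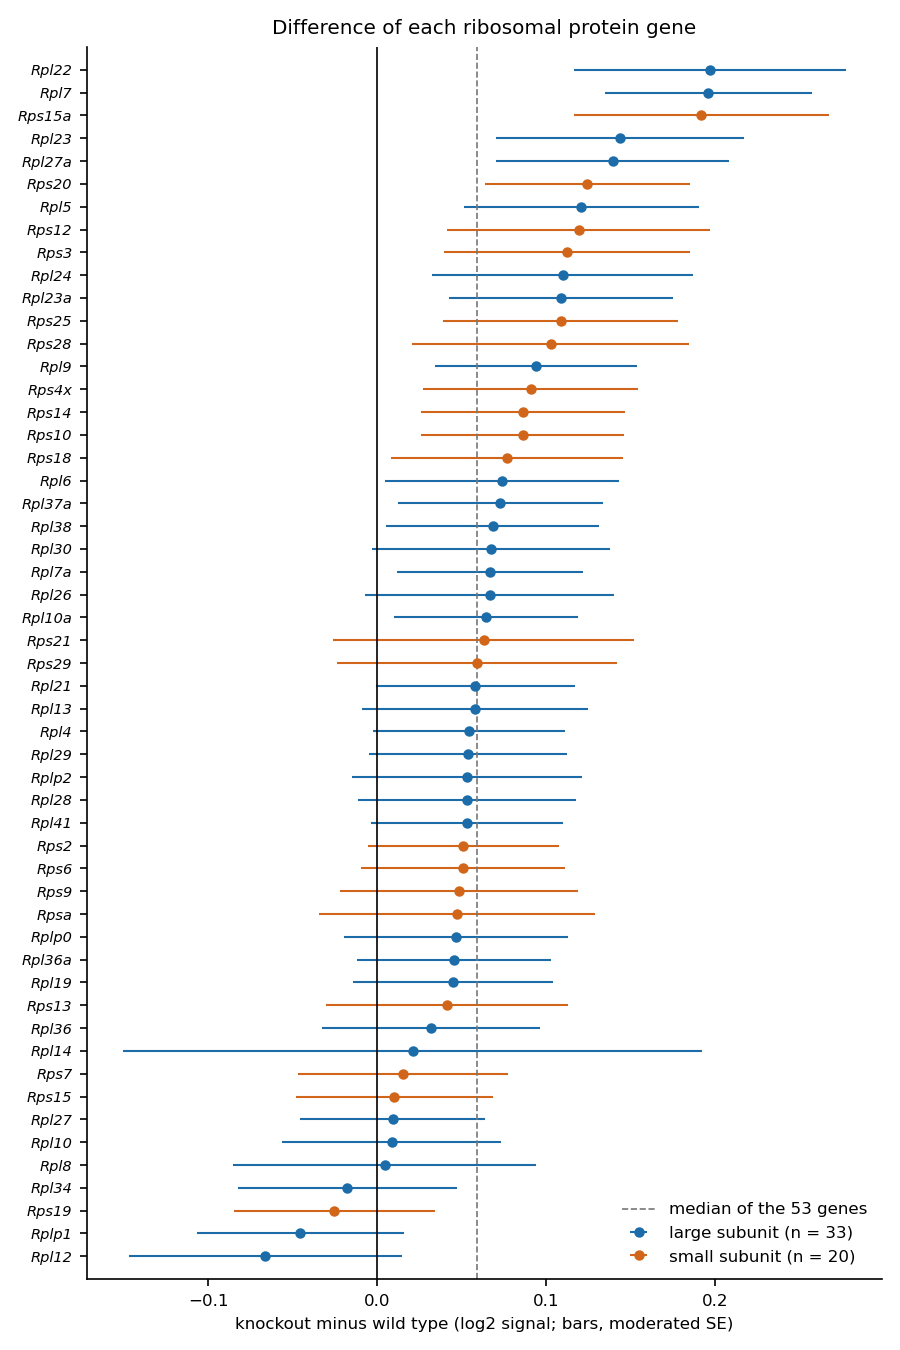
Each point is 1 gene, with its knockout minus wild-type difference in log2 signal on the x axis and its moderated SE as a bar, coloured by subunit (3 arrays per genotype). The points of 49 of 53 genes lie right of 0, from -0.066 for Rpl12 at the bottom to 0.20 for Rpl22 at the top, and the bars of many genes reach 0.

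With the replicate number from the labels as a block in limma, 8 members were higher at an unadjusted p under 0.05 and 0 lower, where 4.46% of tested clusters were higher and 4.36% lower. The 8 were Rpl22, Rpl7, Rps15a, Rpl23, Rpl27a, Rps20, Rps12 and Rps3, and none of them passed correction (limma with the replicate block, lowest adjusted p = 0.514, with 0.00427% of all clusters past 0.05). With a variance trend in limma 8 members were likewise higher at an unadjusted p under 0.05, where 1.96% of tested clusters were. After cyclic loess normalisation 44 members were above 0, against 50.2% of tested clusters. Without both replicate 2 arrays 47 members were above 0, against 51.6% of tested clusters, with a median of 0.054, and 1 was higher at an unadjusted p under 0.05 in limma, where 1.55% of tested clusters were higher.

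Rpl22, a large subunit protein that also binds RNA outside the ribosome, had the largest difference. It read 10.75, 10.89 and 10.90 on the knockout arrays and 10.51, 10.77 and 10.69 on the wild-type arrays. The groups overlapped, because the lowest knockout array lay just below the second wild-type array. The difference was 0.20 (SE 0.080; limma, unadjusted p = 0.0376), or 1.15-fold.

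Rpl7, a large subunit protein of the universally conserved family, had the lowest unadjusted p of the members. Its knockout arrays read 11.81, 11.90 and 11.97 and its wild-type arrays 11.71, 11.69 and 11.70. All knockout arrays lay above all wild-type arrays, and the wild-type arrays had an SD of 0.013. The difference was 0.20 (SE 0.061; limma, unadjusted p = 0.0112). The other 3 clusters annotated to Rpl7 differed by 0.19 to 0.21.

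Rps15a, a small subunit protein, was the third member past an unadjusted p of 0.05. It read 10.57, 10.78 and 10.54 in the knockout and 10.45, 10.48 and 10.39 in the wild type. Here too the groups did not overlap, with the second knockout array highest. The difference was 0.19 (SE 0.075; limma, unadjusted p = 0.0320).

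The next differences belonged to Rpl23, Rpl27a and Rps20. Rpl23, a large subunit protein that can bind the p53 regulator MDM2, read 12.44, 12.49 and 12.59 in the knockout and 12.24, 12.43 and 12.42 in the wild type, a difference of 0.14 (SE 0.073). Rpl27a, also of the large subunit, read 11.54, 11.69 and 11.73 against 11.46, 11.56 and 11.52 in the wild type, a difference of 0.14 (SE 0.069). Rps20, of the small subunit head, read 12.90, 12.92 and 12.99 in the knockout and 12.76, 12.79 and 12.88 in the wild type, a difference of 0.12 (SE 0.061). The groups did not overlap in Rpl23 and Rps20 and did overlap in Rpl27a, where the first knockout array lay below the second wild-type array.

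At the other end, 4 members had a difference below 0. Rpl12, which sits at the base of the stalk, read 8.52, 8.81 and 8.74 in the knockout and 8.70, 8.78 and 8.79 in the wild type (difference -0.066, SE 0.081). Without the low first knockout array the Rpl12 difference was 0.017. Within replicate numbers 1, 2 and 3 it was -0.18, 0.028 and -0.051. Rplp1, an acidic protein of the stalk that recruits elongation factors, read 13.19, 13.20 and 13.32 in the knockout and 13.32, 13.25 and 13.27 in the wild type (difference -0.045, SE 0.061). Rps19, the gene most often mutated in human Diamond-Blackfan anaemia, differed by -0.025 (SE 0.059) and Rpl34 by -0.018 (SE 0.065). Rpl34 was the member that was lower in the knockout within every replicate number, at 11.08, 11.21 and 11.11 in the knockout and 11.11, 11.23 and 11.12 in the wild type. Knockout and wild-type arrays overlapped in all of these 4 genes, and Rpl8, the next in order, differed by 0.0045 (SE 0.090).

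**Figure D2:**
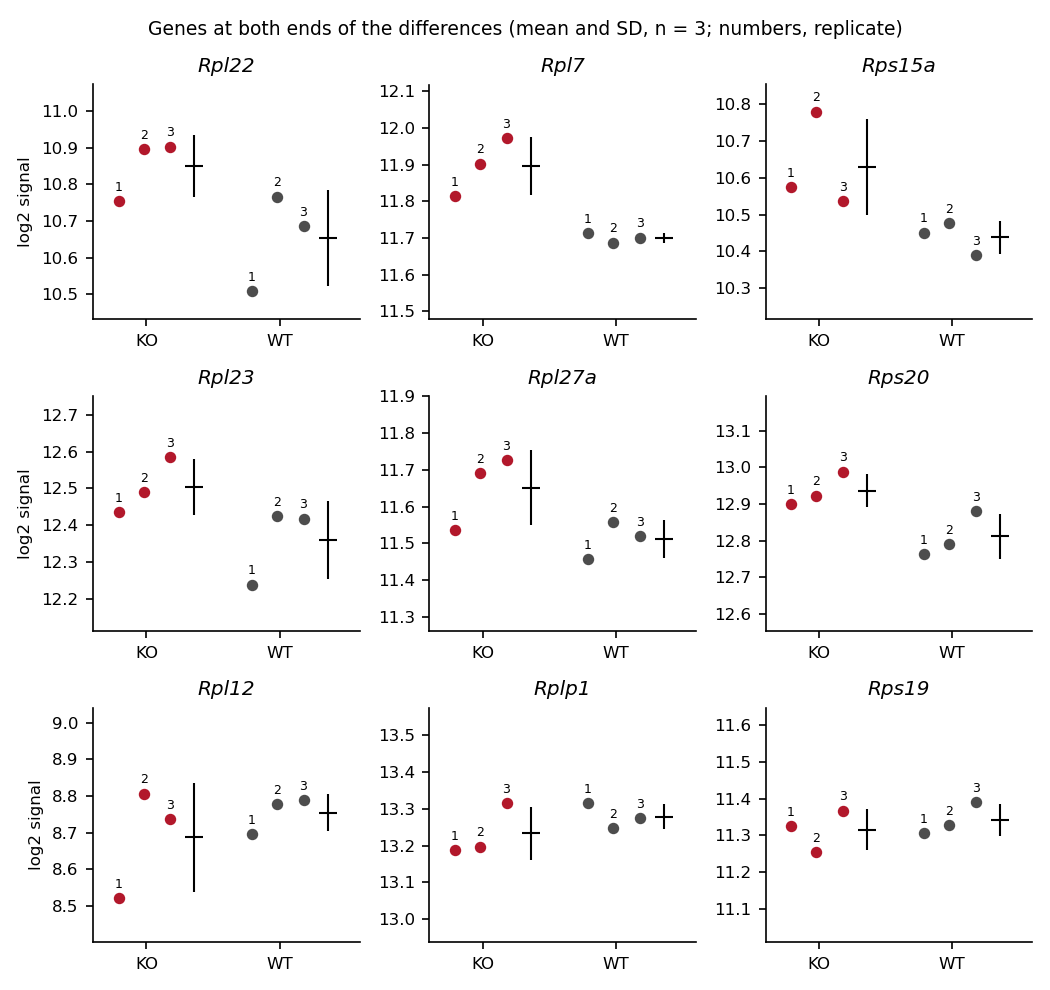
Log2 signal of 9 genes on the 3 knockout (KO, red) and 3 wild-type (WT, grey) arrays, numbered by replicate, with the mean and SD of each group beside the points. Every panel spans the same range in log2 units, at the level of its own gene. The knockout points of Rpl7, Rps15a, Rpl23 and Rps20 all lie above the wild-type points, and those of Rpl12, Rplp1 and Rps19 overlap them.

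Across the family, all 3 knockout arrays lay above all 3 wild-type arrays in 9 of 53 members (17.0%), against 4.08% of tested clusters, and below them in 0 members, against 4.35%. Beside Rpl7, Rps15a, Rpl23 and Rps20 these were Rpl9, Rpl7a, Rpl10a, Rpl4 and Rpl41, with differences of 0.094, 0.067, 0.064, 0.054 and 0.053. Compared within replicate numbers, 29 members (54.7%) were higher in the knockout for all 3 numbers, against 16.5% of tested clusters, and 1 member, Rpl34, was lower for all 3, against 15.9%. The median difference within replicate 1 was 0.020, with 32 of 53 members above 0, against 50.6% of tested clusters. It was 0.078 within replicate 2, with 49 above 0, against 49.6% of tested clusters, and 0.10 within replicate 3, with 48 above 0, against 51.2%. The members thus stood close to all clusters in replicate 1 and well above them in replicates 2 and 3.

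The arrays themselves showed how the members moved together. Taking each gene as its deviation from its own mean over the 6 arrays, the median member stood at -0.035, 0.062 and 0.074 on knockout arrays 1, 2 and 3 and at -0.063, -0.0069 and -0.013 on wild-type arrays 1, 2 and 3. The mean of these medians was 0.033 ± 0.060 over knockout arrays and -0.028 ± 0.031 over wild-type arrays (SD, n = 3 each), a difference of 0.061 that was close to the spread between arrays of 1 group. On knockout array 1 only 14 members lay above their own mean, against 49 and 46 on knockout arrays 2 and 3. On the wild-type arrays 6, 23 and 23 members did so. Knockout array 1 thus lay among the wild-type arrays, and the arrays of replicate 1 were the lowest of both genotypes.

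**Figure D3:**
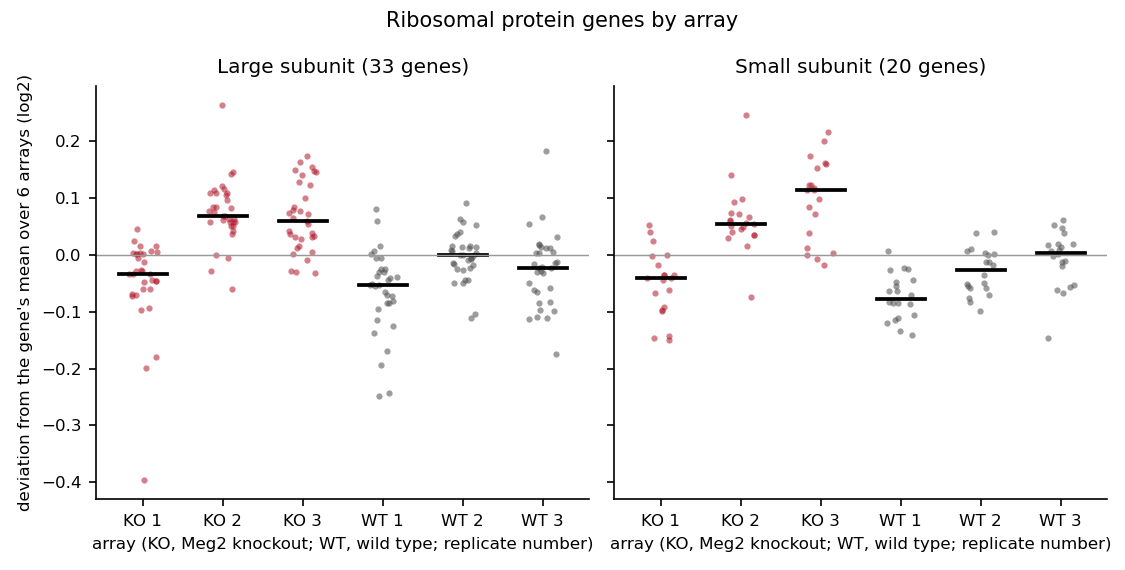
Each point is 1 gene on 1 array, as its deviation in log2 signal from that gene's mean over the 6 arrays, for the large (left) and the small subunit (right), with black bars at the array medians. The medians of knockout arrays 2 and 3 are above those of the wild-type arrays in both panels, and knockout array 1 (-0.033 and -0.041) lies among the wild-type arrays.

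Leaving out knockout array 1 raised the median difference to 0.11 and left 51 members above 0, against 48.9% of tested clusters, with 7 higher at an unadjusted p under 0.05 in limma, where 2.7% of tested clusters were higher. Without replicate 1 of both groups the median was 0.096, with 48 above 0, against 50.0% of tested clusters. The lowest count above 0 with a single array left out was 41, without knockout array 3, against 49.8% of tested clusters. A single member was higher at an unadjusted p under 0.05 in limma without knockout array 2, without wild-type array 1 or without wild-type array 3, where 2.76%, 1.73% and 1.27% of tested clusters were. Without both replicate 3 arrays the median difference of the members was 0.043, with 42 above 0, against 49.7% of tested clusters. In that setting 0 members were past an unadjusted p of 0.05 in limma, where 0.927% of tested clusters were higher.

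Members resembled each other more than tested clusters did in general. The median Pearson r between pairs of members over the 6 arrays was 0.59, and 1217 of 1378 pairs (88.3%) were above 0, while the median over all pairs of tested clusters was -0.001 and that between the other 1991 clusters in the top 10% of signal was 0.113. After the genotype means were removed the median r between members was 0.53 and that between those other bright clusters 0.15, so the likeness was nearly as large within genotypes. All arrays were normalised together and the replicate numbers pair them, which the points share. Rpl27a, Rps10, Rps25 and Rpl38 were most like the rest, with mean r from 0.67 to 0.69. Rps19 and Rplp1 were the least alike, at -0.14 and -0.063, and these are also 2 of the 4 genes with a difference below 0. Genotype means were left in for this mean r, so it is not separate from the difference. Rpl34 and Rpl12, also below 0, had a mean r of 0.27 and 0.33.

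The large and the small subunit had similar differences. In the large subunit 30 of 33 members were above 0, with a median difference of 0.058, and in the small subunit 19 of 20, with a median of 0.070. The large-minus-small gap in median deviation was 0.0078, 0.014 and -0.054 on the knockout arrays and 0.025, 0.027 and -0.027 on the wild-type arrays, so both replicate 3 arrays had relatively more small subunit signal. It averaged -0.011 ± 0.038 over knockout arrays and 0.0083 ± 0.030 over wild-type arrays (SD, n = 3 each), so the genotype means of the gap lay within the spread between arrays of 1 group. Within replicate numbers 1, 2 and 3 the knockout gap minus the wild-type gap was -0.017, -0.013 and -0.027, so the small subunit stood slightly higher relative to the large in the knockout for all 3 numbers (mean -0.019, SD 0.0074, n = 3). No test was made on this score. The median r of large with small subunit members, 0.60, was near that within the large (0.56) and within the small subunit (0.61).

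The members are given next by their place and role in the ribosome, with the family's share above 0, 92.5%, as the base for each group. At the stalk where elongation factors dock, 2 of 3 members were above 0. Rplp0, the stalk's scaffold, differed by 0.047 (SE 0.066), Rplp2 by 0.053 (SE 0.068) and Rplp1 by -0.045. Rpl5, which with Rpl11 and the 5S ribosomal RNA forms a particle that can restrain MDM2, read 12.57, 12.68 and 12.63 in the knockout and 12.40, 12.52 and 12.60 in the wild type. Its difference was 0.12 (SE 0.070), with the third arrays of both groups close together. Rpl11 had no cluster of its own.

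Of 8 listed proteins that line the peptide tunnel or frame its exit 4 were measured, and all 4 were above 0, as were most members of the family. Rpl23a, at which the signal recognition particle and nascent chain factors dock, differed by 0.11 (SE 0.066), Rpl26 by 0.067 (SE 0.074), Rpl4 by 0.054 (SE 0.057) and Rpl19 by 0.045 (SE 0.059). Rpl26 was not even over arrays, with the wild-type arrays at 10.28, 10.20 and 10.03 and all knockout arrays between 10.21 and 10.27. Rpl10, which joins the large subunit late in its assembly, differed by 0.0087 (SE 0.065). Rpl38, known in mice for its part in the translation of Hox mRNAs, differed by 0.068 (SE 0.063), Rpl29 by 0.054 (SE 0.059) and the very short Rpl41 by 0.053 (SE 0.057).

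Among small subunit proteins, those on the mRNA entry side were Rps3, Rps2 and Rps9. Rps3, which also acts in DNA repair, read 11.88, 11.94 and 12.05 in the knockout and 11.76, 11.83 and 11.95 in the wild type, a difference of 0.11 (SE 0.073). Within each of the 3 replicate numbers it was higher in the knockout by 0.11 or 0.12, so its spread between arrays lay almost wholly between the numbers. Rps2 differed by 0.051 (SE 0.056) and Rps9 by 0.048 (SE 0.070). On the platform, where the mRNA leaves, Rps28 differed by 0.10 (SE 0.082), Rps14 by 0.086 (SE 0.060) and Rps7 by 0.015 (SE 0.062). Rps15, near the decoding centre, stood at 0.010 (SE 0.058).

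Other small subunit members lay in the same narrow range. Rps6 read 13.66, 13.80 and 13.71 in the knockout and 13.64, 13.71 and 13.68 in the wild type, a difference of 0.051 (SE 0.060). Rpsa, the laminin receptor precursor, differed by 0.047 (SE 0.081). The X-linked Rps4x differed by 0.091 (SE 0.064), and the other X-linked members were Rpl10 and Rpl36a (0.045, SE 0.057). On the array pair of replicate 2, with Xist and Y-linked signal together, Rps4x was higher in the knockout by 0.11, against 0.045 and 0.12 in replicates 1 and 3. Of 19 genes mutated in human Diamond-Blackfan anaemia, 9 were members, and 8 of these were above 0, a share near that of the whole family, with a median of 0.067.

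The spread within a group was largest in Rpl14, Rps21 and Rps29, at an SD of 0.36, 0.18 and 0.16 among the knockout arrays. Rpl14 read 8.66, 9.32 and 9.22 in the knockout and 8.81, 9.09 and 9.24 in the wild type, so its difference of 0.021 (SE 0.17) lay far inside its spread. In Rpl14, Rps21 and Rps29 the first knockout array was the lowest of all 6. The remaining members, given by range, had differences from 0.0092 (Rpl27) to 0.12 (Rps12).

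Signals of the member clusters averaged from 7.96 (Rplp2) to 13.7 (Rplp0), and 39 of 53 lay in the top 10% of tested clusters by mean signal, at or above 11.3. Signals of different clusters reflect their probes as well as abundance and were not compared between genes. Across the 53 genes, which share arrays and are not independent, difference and mean signal had a Pearson r of -0.023 and a Spearman rho of -0.19. The other 1991 clusters at or above that signal, with none annotated to a symbol of the rule, had a median difference of 0.0069, and 55.4% of them were above 0. Their median deviation was -0.019, 0.027 and 0.0036 on the knockout arrays and -0.018, 0.0023 and 0.0079 on the wild-type arrays. They too were lowest on the replicate 1 arrays of both genotypes, at a smaller size than the members.

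**Figure D4:**
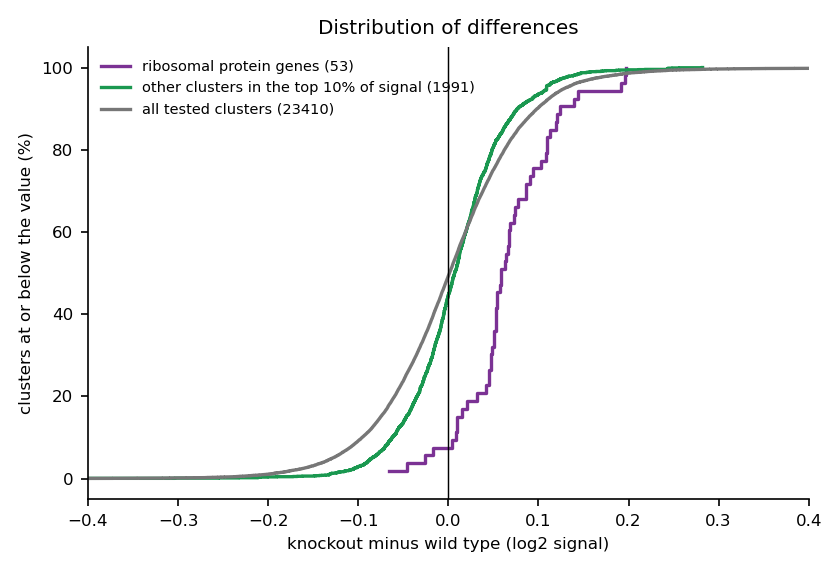
Cumulative share of clusters (y axis, %) at or below a given knockout minus wild-type difference (x axis, log2 signal) for the 53 ribosomal protein genes, for the 1991 other clusters in the top 10% of signal and for all 23410 tested clusters. The curve of the ribosomal protein genes lies to the right, with a median of 0.059, against 0.0069 and 0.0012 for the other curves; differences beyond 0.4 in size are not drawn.

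Many ribosomal protein genes have processed copies in the mouse genome. Whether a cluster reads the gene or a copy was not determined. The 53 genes had 208 clusters annotated to a single symbol, from 1 to 14 per gene, and 15 genes had a single one. Clusters that share probes are not independent, and 19 of the 208 had the same values as another on all 6 arrays. Signal from a copy and signal from the gene itself cannot be told apart here, so values of members with several clusters are uncertain in their source. After removal of identical profiles and of the member clusters, 143 further profiles remained. Of these 140 were above 0, against 50.7% of tested clusters, with a median difference of 0.070. The 7 members read by 1 cluster in any form, Rpl22, Rps20, Rps3, Rpl4, Rplp2, Rpl14 and Rpl8, were all above 0, with a median of 0.054.

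Markers of lens, endothelium and microglia lay mostly higher in the knockout, while erythroid markers did not and those of pigment epithelium were mixed. Of 10 measured retinal markers 8 were above 0 as well, with a median difference of 0.035. The share above 0 was 50.7% over all tested clusters. The mean signal of 12 measured lens genes lay between 7.62 and 7.88 on knockout arrays and between 7.55 and 7.69 on wild-type arrays, and 10 of the 12 were above 0. The largest lens differences, of Cryba1 (0.54, SE 0.27) and Cryaa (0.53, SE 0.22), came mostly from knockout array 3. Within replicate numbers 1, 2 and 3 Cryba1 was higher by 0.29, 0.15 and 1.19 and Cryaa by 0.10, 0.21 and 1.28. Of 7 endothelial genes 6 were above 0, with array means from 8.12 to 8.49 in the knockout and from 8.05 to 8.23 in the wild type. Cdh5, a cadherin of endothelial junctions, differed by 0.54 (SE 0.14; limma, unadjusted p = 0.00429), and Emcn, an endothelial surface mucin, by 0.50 (SE 0.14; limma, unadjusted p = 0.00585). Within replicate numbers 1, 2 and 3 Cdh5 was higher by 0.37, 0.23 and 1.02 and Emcn by 0.24, 0.28 and 0.98. Kdr, the 1 endothelial gene below 0, differed by -0.070 (SE 0.083). Of 7 microglial genes 5 were above 0, with array means from 7.81 to 8.06 in the knockout and from 7.75 to 7.88 in the wild type. C1qb, a chain of complement C1q made by microglia, differed by 0.47 (SE 0.13; limma, unadjusted p = 0.00643). The 2 microglial genes below 0 were P2ry12 (-0.13, SE 0.068) and Aif1 (-0.0021, SE 0.090), and Cx3cr1 stood at 0.045 (SE 0.14). At an unadjusted p under 0.05 in limma, 2 of 7 endothelial, 3 of 7 microglial, 1 of 12 lens and 1 of 8 pigment epithelium genes were higher, against 1.69% of tested clusters, and 0 were lower. The differences of Cdh5, Emcn, C1qb, Cryba1 and Cryaa were larger than that of any ribosomal protein gene, and none passed correction (limma, adjusted p = 0.9995). With the mean lens signal as a covariate in limma the median difference of the members was 0.081, with 48 above 0, against 47.7% of tested clusters. Of 8 pigment epithelium genes 5 were above 0, with array means from 7.12 to 7.41 in the knockout and from 7.12 to 7.24 in the wild type. The highest mean was on knockout array 1, while knockout arrays 2 and 3 (7.21 and 7.12) lay within the wild-type range. Within replicate numbers 1, 2 and 3, 6, 6 and 2 of the 8 were above 0. Of 9 erythroid genes 3 were measured and 1 was above 0, with array means from 7.12 to 7.21 in the knockout and from 7.18 to 7.21 in the wild type. The part of the endothelial, microglial, pigment epithelium and erythroid signal in the result was not tested.

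Genes whose mRNAs share the TOP tract or the ribosome's work were set beside the members. Of 18 measured translation factors and other TOP genes 16 were above 0, against 50.7% of tested clusters, with a median difference of 0.067. Of the 18, 0 passed an unadjusted p of 0.05 in limma, where 1.69% of tested clusters were higher and 1.74% lower. Eif4b, an initiation factor that stimulates the helicase eIF4A, read 11.70, 11.84 and 11.77 in the knockout and 11.52, 11.73 and 11.63 in the wild type (difference 0.14, SE 0.072). Tpt1, a small protein with a strong TOP tract, differed by 0.11 (SE 0.056) and Pabpc1, the poly(A)-binding protein, by 0.10 (SE 0.058). The elongation factor genes Eef1a1 and Eef2 stood closer to 0, at 0.022 (SE 0.056) and 0.035 (SE 0.057). All 3 knockout arrays lay above all wild-type arrays in 2 of these 18 genes (11.1%), against 4.08% of tested clusters.

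Ribosomal genes outside the rule, 8 of 14 measured, gave a mixed picture. Fau, whose product is cleaved to the small subunit protein eS30, differed by 0.068 (SE 0.056) and Rps3a1 by 0.11 (SE 0.098). Rpl10l, a retrocopy of Rpl10 known for its use in mouse testis, read 7.88, 7.54 and 7.57 in the knockout and 7.45, 7.34 and 7.51 in the wild type. It differed by 0.23 (SE 0.096; limma, unadjusted p = 0.0410), and the first knockout array lay farthest above the rest. The paralogues Rpl3l, Rpl7l1 and Rps27l differed by 0.17 (SE 0.094), -0.022 (SE 0.073) and -0.039 (SE 0.067). Rpl10l, Rpl3l (6.31 to 6.76) and Rpl39l (difference -0.076, SE 0.061) had signals below the median of tested clusters, 8.51. The median difference of the list was 0.089 over all 8 genes and 0.068 over the 5 at or above the median signal.

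Mitochondrial ribosomal proteins, which build the separate ribosome of that organelle, did not lie higher. Of 77 measured genes 21 were above 0, against 50.7% of tested clusters, with a median difference of -0.025. Of the 77, 0 passed an unadjusted p of 0.05 in either direction in limma, against 1.69% of tested clusters higher and 1.74% lower. The largest difference was in Mrps26, which read 8.70, 9.00 and 9.11 in the knockout and 9.06, 9.23 and 9.20 in the wild type (-0.23, SE 0.10). Mrpl54 and Mrpl12 differed by -0.13 (SE 0.065) and -0.11 (SE 0.058). Without knockout array 1 the median over the mitochondrial genes was 0.0040, and without replicate 1 of both groups it was -0.0047. Within replicate numbers 1, 2 and 3 the median was -0.070, -0.0065 and -0.019. For all 3 numbers 23 genes (29.9%) were lower in the knockout, against 15.9% of tested clusters.

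Factors of ribosome assembly and ribosomal RNA synthesis lay on both sides of 0. Of 41 measured genes 18 were above 0, against 50.7% of tested clusters, with a median difference of -0.025. That median was 0.0049 without knockout array 1 and 0.014 without wild-type array 3. It was -0.023 and -0.027 without replicate 1 or replicate 3 of both groups. Within replicate numbers 1, 2 and 3 the median was -0.0165, -0.033 and -0.024. For all 3 numbers 14 genes (34.1%) were lower in the knockout, against 15.9% of tested clusters. Counts with the replicate block are given at the end. The 1 gene of 41 past an unadjusted p of 0.05 (1.74% of tested clusters were lower) was Rpf2, which loads the 5S particle onto the large subunit precursor. It read 8.79, 8.77 and 8.78 in the knockout and 8.97, 8.89 and 8.94 in the wild type, with no overlap (-0.15, SE 0.055; limma, unadjusted p = 0.0223, adjusted p = 0.9995). Nhp2, of the pseudouridylation particles, differed by -0.23 (SE 0.12) and Ltv1, which helps to export the small subunit, by -0.15 (SE 0.068). The nucleolar proteins Ncl and Npm1 (listed with the TOP genes) stood at 0.035 (SE 0.074) and 0.13 (SE 0.086).

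Genes of mTORC1 and other regulators of these mRNAs were evenly split, with 9 of 17 above 0, against 50.7% of tested clusters, and a median of 0.0031. Eif4ebp2, a repressor of cap-dependent translation that mTORC1 inactivates, read 11.74, 11.78 and 11.75 in the knockout and 11.67, 11.62 and 11.55 in the wild type (0.14, SE 0.058; limma, unadjusted p = 0.0375). Its relative Eif4ebp1 differed by -0.12 (SE 0.077), Mtor itself by -0.098 (SE 0.061) and Larp1 by -0.010 (SE 0.079). Myc and Mycn, whose proteins drive ribosome production, stood at 0.11 (SE 0.088) and 0.051 (SE 0.066). No gene of these lists passed correction in limma (lowest adjusted p = 0.9995).

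**Figure D5:**
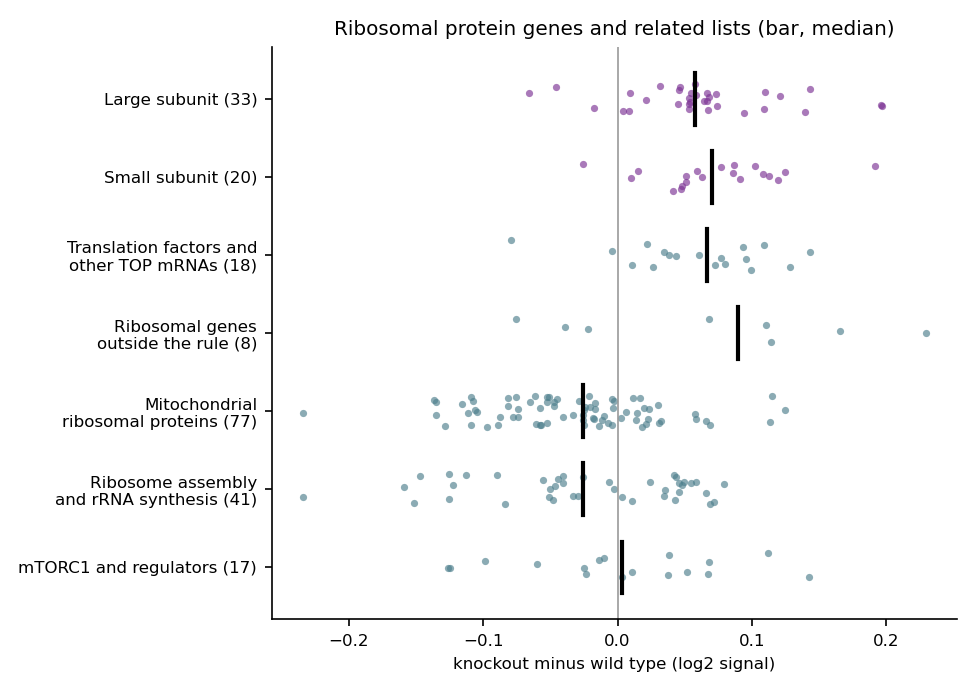
Each point is 1 gene, with its knockout minus wild-type difference in log2 signal on the x axis, in rows by list with the number of genes measured, and a black bar marks the median. Medians of both subunits and of the TOP genes lie between 0.058 and 0.070, those of the mitochondrial ribosomal proteins and the assembly factors at -0.025.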

How the data were processed

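Retinal RNA of 6 mice, per the labels, was measured, 3 per genotype. The deposited table holds log2 values for transcript clusters, which the authors made with Affymetrix Expression Console and RMA, per the submitters' processing notes, which also name Transcriptome Analysis Console. RMA sets all arrays to 1 distribution, which removes any shift common to most genes. Versions of this software: not given in the sources used here.

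Of 35557 clusters a platform annotation names 1 gene for 21789, several for 1621 and none for 12147. The 23410 named clusters were fitted with limma 3.58.1 (lmFit, eBayes) in R 4.3.3, with no filter, Benjamini-Hochberg adjustment and a threshold of 0.05. SEs are moderated. An exact permutation of 3 against 3 arrays cannot go below p = 0.1 and was not used. All 53 members were found by Entrez identifier in a RefSeq gene table (GRCm38.p6). Tables used pandas 2.3.3 in Python 3.11.15 and figures matplotlib 3.10.9. The fit was tested on simulated data.

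The members, lists and tests were chosen with earlier results of these data known, and the groups by place in the ribosome and the motifs after the values were seen. Named members were those with an unadjusted p under 0.05, the 5 largest differences in each direction, the 3 with the largest SD within a group and a list of roles. In related lists they were the 3 genes with the lowest unadjusted p and a short list. Others named (Rps20, Rpl9, Rpl7a, Rps12 and the likeness extremes among them) were chosen after their values were seen.

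Replicate numbers are those of the labels, where their meaning is unstated, and sex-linked signal followed them. Same-numbered arrays deviated from their group means together (r of 0.476, 0.485 and 0.455 over all tested clusters, each above the 0.1 taken as pairing), so limma was also run with number as a block. Nothing in the labels names a scan date or another batch. Alternatives tried were the replicate block, arrays left out, cyclic loess or median centring, array weights, robust or trended variance, a lens covariate, signal filters (25th, 50th and 90th percentile), every cluster of the table, and other choices of cluster per gene.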

Additional observations from a re-analysis of the deposited data

How the results depend on the processing

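The count of members above 0, 49 of 53, stayed within 1.5 times under each of the 22 alternatives except that restricted to members read by 1 cluster, where it was 7 of 7 and the count at an unadjusted p under 0.05 was 1. It ranged from 41 to 51 with arrays left out and was 44 with cyclic loess. The count higher at an unadjusted p under 0.05, 3 in limma, was 8 with the variance trend and 8 with the replicate block, and between 0 and 7 with arrays left out. It was 1 without knockout replicate 2, without wild-type replicate 1 or without wild-type replicate 3. The count past an adjusted p of 0.05 was 0 under every alternative in limma, with a lowest adjusted p of 0.514, and the replicate block changed no call at that threshold. The median difference ranged from 0.043 to 0.11 with arrays left out, that of the large subunit from 0.041 to 0.087 and that of the small subunit from 0.043 to 0.13. The small subunit median was 0.13 without knockout replicate 1, 0.11 without replicate 1 of both groups and 0.043 without knockout replicate 3. The large minus small median difference, -0.012, lay between -0.043 and 0.012 with arrays left out and was -0.065 over the 7 members read by 1 cluster, its sign turning without knockout replicate 3 (0.012), with the lens covariate (0.0097) and with the mean of all clusters of a gene (0.00072). The cause of these moves was not tested.

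No sign changed for 37 of 53 members. Median centring turned Rpl8 (-0.00052). Cyclic loess turned Rps7 (-0.0037), Rps15 (-0.018), Rpl27 (-0.0098), Rpl10 (-0.020) and Rpl8 (-0.0090). The lens covariate turned Rps21 (-0.0084), Rpl27 (-0.011) and Rpl34 (0.049). With single arrays left out, signs turned within these ranges: Rpl10 from -0.031 to 0.042, Rpl12 from -0.13 to 0.017, Rpl14 from -0.11 to 0.22, Rpl26 from -0.0041 to 0.12, Rpl27 from -0.0096 to 0.026, Rpl34 from -0.054 to 0.024, Rpl8 from -0.051 to 0.096, Rplp0 from -0.0051 to 0.073, Rps13 from -0.010 to 0.10, Rps15 from -0.015 to 0.033, Rps19 from -0.051 to 0.0049, Rps21 from -0.029 to 0.15, Rps29 from -0.0074 to 0.15, Rps7 from -0.022 to 0.040 and Rpsa from -0.021 to 0.13. Without replicate 1 of both groups Rps7 was at -0.00095, and without replicate 2 of both groups Rpl14 was at -0.084 and Rpl8 at -0.022. Without replicate 3 of both groups Rpl26 was at -0.0038, Rps21 at -0.042, Rpsa at -0.011, Rpl36 at -0.0035, Rpl27 at -0.0058, Rpl10 at -0.013 and Rpl8 at -0.0047. Each of these members differed by less than 0.07 in size over all 6 arrays. With 3 arrays per genotype, differences of this size could not be resolved gene by gene.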

Other observations

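Clusters that carry several gene symbols were not used for members. Of 233 such clusters with a ribosomal protein symbol 230 had a difference above 0, against 50.7% of all tested clusters, with a median of 0.075. At an unadjusted p under 0.05 in limma 5 (2.15%) were higher and 0 lower, against 1.69% of all tested clusters higher and 1.74% lower. Many of these clusters share probes and were not counted as separate evidence. For the 16 genes read only in this way, the brightest such cluster of each was above 0 in 16 of 16, with a median of 0.058 and a range of 0.00086 to 0.15, and 0 were past an unadjusted p of 0.05 in limma.

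Among the further clusters of single members, Rps21 had 1 with a difference of -0.044, against 0.063 for its member cluster, and Rpsa had 1 of 4 with a difference of -0.0098, against 0.047. The 13 other clusters of Rps12 were all above 0.

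With the replicate number as a block in limma, 1 of 77 mitochondrial ribosomal protein genes was higher and 3 were lower at an unadjusted p under 0.05, at or below the 4.46% higher and 4.36% lower of all tested clusters. By the same rule 0 of 41 assembly genes were higher and 6 lower, and 2 of 18 TOP genes were higher and 0 lower.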
